A study of Mus musculus with 6 samples.

Results

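The release machinery of synaptic vesicles was followed as 38 genes in RNA-seq of the mouse medial ganglionic eminence (MGE), a ventral forebrain germinal zone, dissected on embryonic day 14. The genes were taken by symbol: 7 synaptotagmins, 8 genes of the fusion machinery, 10 genes of vesicle proteins, 9 genes of Rab3 proteins and the active zone, and 4 genes of vesicle retrieval. All 38 matched 1 gene ID each among the 49315 in the count table, and all 38 were among the 18079 genes with enough reads to be tested. The libraries labelled KO came from Nkx2.1-Cre embryos homozygous for a floxed Prdm16 allele (Prdm16fl/fl), and the libraries labelled WT from Nkx2.1-Cre embryos with intact Prdm16 (Prdm16+/+). Both groups also carried the Ai14 reporter. Each group had 3 libraries, and each library was 1 pool of 6 eminences from 3 embryos. Nkx2.1-Cre acts in MGE progenitors and their descendants, so cells of other origin in the dissected tissue keep the floxed allele intact. Values are CPM, counts divided by the TMM-adjusted library size, and adjusted p-values are from edgeR's quasi-likelihood test over all tested genes.

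Total counts were 36517047 to 55552298 in the libraries labelled KO and 33188277 to 46301483 in those labelled WT. Counts for the whole Prdm16 gene did not separate the groups (edgeR adjusted p = 0.884; 50.2 ± 4.02 CPM in KO and 49.4 ± 5.55 CPM in WT, SD, n = 3 each). The sources used here do not say which part of the gene Cre removes, so gene counts cannot check the label and each direction below rests on it alone. The MGE markers Nkx2-1 and Lhx6 were abundant in every library. Nkx2-1 had 637 to 861 CPM in the libraries labelled KO and 615 to 674 CPM in WT. Lhx6 had 472 to 521 CPM in the libraries labelled KO and 621 to 683 CPM in WT. Lhx6 was itself called lower (log2 fold change -0.38, edgeR adjusted p = 0.00627). On the first principal component (55.9% of the variance) KO 1 lay at -15.91, KO 2 at -35.44 and KO 3 at -37.18. The WT libraries lay at 28.27 to 30.96, so KO 1 was the KO library nearest to WT on that component. KO 1 also stood apart from KO 2 and KO 3 on the second principal component (16.1% of the variance). The Y-linked genes Ddx3y, Eif2s3y, Kdm5d and Uty summed to 238.5, 124.5 and 0.3625 CPM in KO 1 to 3. Their sum was 84.02, 46.69 and 83.21 CPM in WT 1 to 3. The share of male tissue thus differed among the pools, most widely among the KO libraries.

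Neurotransmitter is stored in vesicles that dock at the active zone, are primed there, and fuse when calcium enters. Synaptotagmins sense the calcium, SNARE proteins drive the fusion of the membranes, and clathrin-dependent retrieval returns the vesicle membrane. In the embryonic MGE GABAergic interneurons are born and begin to migrate. Many of these genes are switched on in newborn neurons well before synapses form, and their products also serve membrane traffic in growing processes. Which cells of the dissected tissue express each gene was not tested.

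Release genes were more often lower than higher in the libraries labelled KO. Of the 38 genes, 14 fell and 0 rose at an edgeR adjusted p under 0.05 (36.8% lower), while 10.5% of all tested genes were called lower and 9.72% higher (20.2% in either direction). Syt4, a synaptotagmin, was 1.73-fold lower, Amph, an adaptor of vesicle retrieval, 1.67-fold lower and Cplx1, which regulates SNARE assembly, 1.58-fold lower. In 15 of the 38 genes each library labelled KO lay below each WT library, against 19.6% of all tested genes, and in 0 did all lie above, against 20.3% of all tested genes. The median log2 fold change was -0.22 over the 38 genes and -0.0024 over all tested genes. All 14 falls were less than 2-fold, since Syt4 had the greatest of them.

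**Figure D1:**
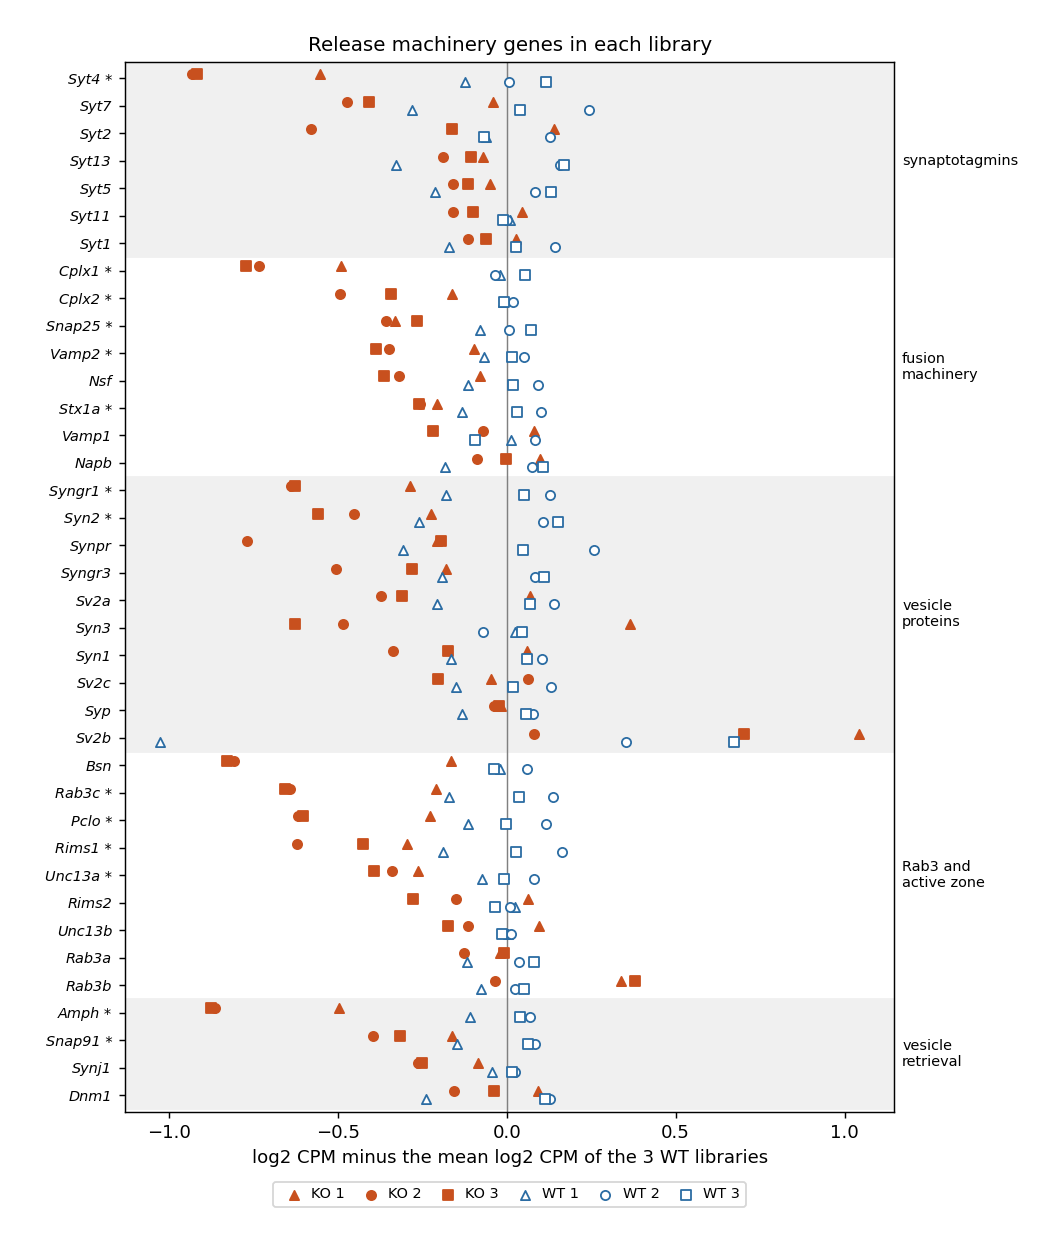
Level of each of the 38 genes in each library, as log2 CPM minus the mean log2 CPM of the 3 WT libraries, by role. Filled symbols are KO libraries, open symbols are WT libraries, and an asterisk marks the 14 genes called lower. KO 1 (filled triangles) is the KO library nearest to WT in most genes, and Syt4, Amph and Cplx1 have all KO libraries well below all WT libraries.

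The number of genes called depended on the libraries used. KO 1 had the highest value of the 3 KO libraries in 33 of the 38 genes, and WT 1 had the lowest value of the WT libraries in 30. Without KO 1, 24 of the 38 genes fell and 0 rose, while 20.9% of all tested genes were then lower. Without KO 2, without KO 3 or without WT 2 the count was 5 in each case, namely Syt4, Cplx1, Amph, Unc13a and Snap25, and without WT 3 it was 4, since Snap25 then had an edgeR adjusted p of 0.0524. Of all tested genes 4.17% were lower without KO 2, 4.31% without KO 3, 3.9% without WT 2 and 3.91% without WT 3. Without WT 1 there were 13, while 6.31% of all tested genes were lower. The other 9 genes called lower (Stx1a, Vamp2, Cplx2, Syn2, Syngr1, Rab3c, Rims1, Pclo and Snap91) therefore passed in the full set of libraries but not when any of KO 2, KO 3, WT 2 or WT 3 was left out.

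Levels per length ranged widely among the genes. On the TPM scale, which divides counts by exonic length, Syt11 was the most abundant (226 ± 24.7 TPM in KO and 253 ± 3.40 TPM in WT, SD, n = 3 each). Rab3a followed with 178 ± 11.2 TPM in KO and 198 ± 14.7 TPM in WT, and then Vamp2 with 141 ± 21.4 TPM in KO and 182 ± 9.18 TPM in WT. Sv2b, Syt2 and Synpr were the least abundant, and Sv2b had 0.831 ± 0.288 TPM in KO and 0.627 ± 0.318 TPM in WT. The highest and lowest genes thus held the same places in both groups. Syt4 was the 12th gene by level in KO and the 7th in WT, Cplx1 the 14th in KO and the 10th in WT, and Amph the 19th in KO and the 15th in WT. Neighbours could lie within an SD of each other, as Syt4 (89.7 ± 7.62 TPM), Dnm1 (89.0 ± 12.9 TPM) and Syn1 (87.9 ± 9.20 TPM) did in WT (SD, n = 3).

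**Figure D2:**
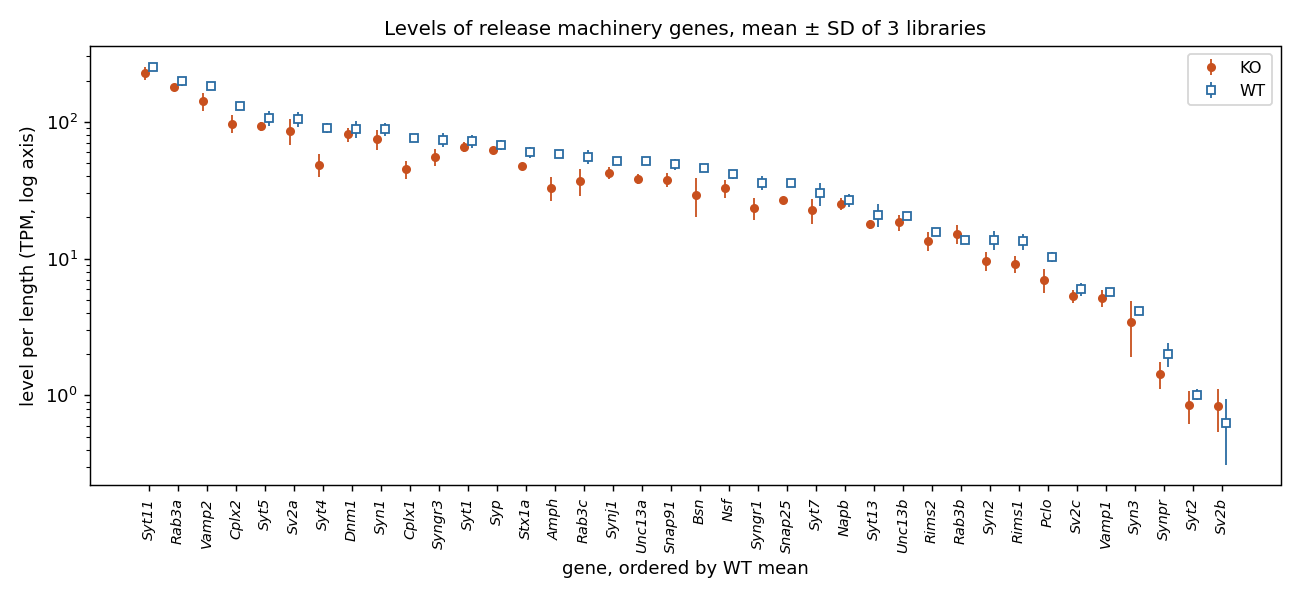
Level per length of each gene on a log axis, in TPM, with genes ordered by their WT mean. Filled circles are KO means, open squares are WT means, and bars are the SD over 3 libraries; Syt11 is highest and Sv2b lowest, and Syt4, Cplx1 and Amph show wide gaps between KO and WT.

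Amph, Cplx1, Unc13a and Syt4 stayed lower under every alternative tried. Promoter sequences are shown for Amph, Cplx1 and Unc13a, but not for Syt4, and for Syn1, a synapsin gene that was not called. Each is the 250 bases before the start in RefSeq (GRCm38.p6), on the gene's own strand, at chr13:18948101-18948350 (+) for Amph, chr5:108550028-108550277 (-) for Cplx1, chr8:71671758-71672007 (-) for Unc13a and chrX:20920919-20921168 (-) for Syn1. Capitals mark GC boxes, the cyclic AMP response element (CRE) and the RE1 site, which is the site bound by REST, a repressor of neuronal genes outside neurons. The GC boxes of Cplx1 and Unc13a read on the other strand, the Amph stretch holds none of these motifs, and no marked motifs overlap. The weaker Unc13a match to RE1 given below lies past the start and so outside its stretch.
Amph: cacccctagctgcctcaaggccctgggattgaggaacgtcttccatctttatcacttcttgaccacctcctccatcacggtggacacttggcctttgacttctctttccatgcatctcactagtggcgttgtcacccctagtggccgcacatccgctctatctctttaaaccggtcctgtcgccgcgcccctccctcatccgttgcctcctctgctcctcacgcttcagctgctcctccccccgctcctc
Cplx1: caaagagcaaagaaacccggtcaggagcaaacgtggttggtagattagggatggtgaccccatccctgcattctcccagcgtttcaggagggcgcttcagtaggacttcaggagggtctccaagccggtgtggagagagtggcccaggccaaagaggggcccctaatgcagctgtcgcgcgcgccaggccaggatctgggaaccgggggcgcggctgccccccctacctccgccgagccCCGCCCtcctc
Unc13a: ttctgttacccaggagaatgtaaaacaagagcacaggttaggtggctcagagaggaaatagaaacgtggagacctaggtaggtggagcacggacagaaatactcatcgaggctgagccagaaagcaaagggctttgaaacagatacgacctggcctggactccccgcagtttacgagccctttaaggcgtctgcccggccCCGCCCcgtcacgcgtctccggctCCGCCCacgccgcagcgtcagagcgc
Syn1: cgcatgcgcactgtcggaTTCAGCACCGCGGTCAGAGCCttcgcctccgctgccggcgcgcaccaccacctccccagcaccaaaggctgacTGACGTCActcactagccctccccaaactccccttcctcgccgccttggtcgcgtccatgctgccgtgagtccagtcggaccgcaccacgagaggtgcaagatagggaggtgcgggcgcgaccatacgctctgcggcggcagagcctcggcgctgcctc

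Windows of 300 bases, from 250 before to 50 after a start, were held for 29 of the 38 genes in 38 windows. Both strands were searched. The GC box (GGGCGG) was found in 63.2% of these windows and in 35.7% of all 32851 windows in the table. The CRE (TGACGTCA) was found in 2.63% of these windows and in 1.79% of all windows. The TATA box (TATAAA) was found in 7.89% of these windows and in 13.6% of all windows. The median GC content was 61.7% in these windows and 52.7% in all windows. RE1, a motif of 21 letters of which 18 are fixed, was searched with up to 4 mismatches, and it was found in 3 of the 38 windows (7.89%) and in 0.575% of all windows. Matches were found for Syn1 with 1 mismatch, and for Syt2 and Unc13a with 4 each, on build GRCm38.p6 at chrX:20921130-20921150, chr1:134646488-134646508 and chr8:71671727-71671747. In the sites below capitals mark bases equal to the fixed letters. Windows of genes called lower had the site in 1 of 12 and those of genes not called in 2 of 26.
Syn1: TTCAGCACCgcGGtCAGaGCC
Syt2: cTgcGCACCgaGGACAGtcCC
Unc13a: TTCAGCACCggGGgCgcgGaC

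Of the 7 synaptotagmins 1 fell and 6 did not pass, with a median log2 fold change of -0.14. The share called lower, 14.3%, was near the 10.5% of all tested genes. Syt4, which is found on dense-core vesicles and does not act as a fast calcium sensor, had 60.5, 46.5 and 47.0 CPM in KO 1 to 3, against 81.4, 89.2 and 96.3 CPM in WT 1 to 3. Every KO library lay below every WT library, and KO 1 was the highest of the KO libraries. The fall was 0.79 on the log2 scale (-0.79, SE 0.10, edgeR adjusted p = 0.00155). Reads of Syt4 can overlap the antisense gene Gm26658 over 14.5% of its exonic length, and the strand setting of the counting is not known.

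Syt1, the calcium sensor of fast release, had 156, 141 and 147 CPM in KO 1 to 3, against 136, 168 and 156 CPM in WT 1 to 3, so the groups overlapped (log2 fold change -0.05, 95% interval -0.23 to 0.12). Syt11, which binds no calcium and was the most abundant gene of the 38, had 346, 299.9 and 313 CPM in KO 1 to 3, against 337, 335 and 332 CPM in WT 1 to 3. KO 1 was the highest of the 6 libraries for Syt11 and the other two KO libraries the lowest. Syt5 had 62.3, 57.7 and 59.6 CPM in KO 1 to 3, against 55.6, 68.3 and 70.5 CPM in WT 1 to 3. Syt7, the sensor of slower, asynchronous release, had 54.8, 40.7 and 42.6 CPM in KO 1 to 3, against 46.5, 66.8 and 58.0 CPM in WT 1 to 3 (log2 fold change -0.31, 95% interval -0.65 to 0.03). Both groups overlapped in Syt5 and in Syt7. Syt13, another synaptotagmin that binds no calcium, averaged 18.2 ± 0.751 CPM in KO and 20.0 ± 3.70 CPM in WT, and Syt2, a fast sensor of the hindbrain and of some adult interneurons, 1.75 ± 0.425 CPM in KO and 1.97 ± 0.155 CPM in WT (SD, n = 3 each).

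Among the 8 genes of the fusion machinery 5 fell and 3 did not pass, with a median log2 fold change of -0.26. The share called lower was 62.5%, against 10.5% of all tested genes. The complexins bind assembled SNARE complexes and both clamp and promote fusion. Cplx1 had 30.0, 25.4 and 24.7 CPM in KO 1 to 3, against 41.6, 41.2 and 43.8 CPM in WT 1 to 3. Cplx2, the more abundant complexin, had 145, 116 and 128 CPM in KO 1 to 3, against 161, 165 and 162 CPM in WT 1 to 3. The groups did not overlap in either gene. Cplx1 fell by 0.66 on the log2 scale (SE 0.08, edgeR adjusted p = 0.00107) and Cplx2 fell by 0.33 (SE 0.08, edgeR adjusted p = 0.0203).

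The SNARE genes of the plasma membrane were lower by smaller amounts. Snap25 had 48.7, 47.8 and 51.0 CPM in KO 1 to 3, against 58.1, 61.6 and 64.4 CPM in WT 1 to 3. Its KO 1 value lay among those of the other KO libraries, unlike in most of the genes (log2 fold change -0.32, SE 0.06, edgeR adjusted p = 0.00854). Stx1a, the syntaxin partner of Snap25, had 35.3, 34.1 and 34.1 CPM in KO 1 to 3, against 37.2, 43.8 and 41.6 CPM in WT 1 to 3 (log2 fold change -0.24, SE 0.07, edgeR adjusted p = 0.0414). Vamp2, the main SNARE of the vesicle, had 165, 139 and 135 CPM in KO 1 to 3, against 169, 183 and 178 CPM in WT 1 to 3. KO 1 lay close to WT 1 in Vamp2, and the groups still did not overlap (log2 fold change -0.27, SE 0.08, edgeR adjusted p = 0.0391). Its paralogue Vamp1 averaged 14.2 ± 1.48 CPM in KO and 14.9 ± 0.912 CPM in WT and did not pass (log2 fold change -0.07, 95% interval -0.28 to 0.15).

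Nsf and Napb take SNARE complexes apart after fusion, and neither passed. Nsf had 82.9, 70.2 and 68.1 CPM in KO 1 to 3, against 80.9, 93.4 and 88.7 CPM in WT 1 to 3, with KO 1 above WT 1 (log2 fold change -0.25, SE 0.08, edgeR adjusted p = 0.0628). Napb averaged 48.2 ± 3.14 CPM in KO and 48.3 ± 5.13 CPM in WT (log2 fold change 0.00, 95% interval -0.19 to 0.19).

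Vesicle proteins were mixed, as 2 of 10 fell and 8 did not pass (median log2 fold change -0.19). That is 20% lower, against 10.5% of all tested genes. Syngr1, a synaptogyrin of the vesicle membrane, had 35.7, 28.0 and 28.2 CPM in KO 1 to 3, against 38.5, 47.7 and 45.2 CPM in WT 1 to 3. The groups did not overlap (log2 fold change -0.51, SE 0.11, edgeR adjusted p = 0.0142). Its relative Syngr3 had 34.2, 27.3 and 31.9 CPM in KO 1 to 3, against 33.9, 41.0 and 41.8 CPM in WT 1 to 3, and KO 1 was just above WT 1 (log2 fold change -0.32, SE 0.10, edgeR adjusted p = 0.0545).

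Synapsins tether vesicles to each other and to actin. Syn2 had 20.8, 17.8 and 16.5 CPM in KO 1 to 3, against 20.3, 26.2 and 27.0 CPM in WT 1 to 3. It was the sole called gene with overlapping groups, since KO 1 exceeded WT 1 (log2 fold change -0.41, SE 0.12, edgeR adjusted p = 0.0412). Syn1, on the X chromosome, had 76.7, 58.4 and 65.3 CPM in KO 1 to 3, against 65.7, 79.1 and 76.8 CPM in WT 1 to 3 and did not pass (log2 fold change -0.14, 95% interval -0.37 to 0.09). Syn3 had 16.6, 9.20 and 8.32 CPM in KO 1 to 3, against 13.1, 12.2 and 13.3 CPM in WT 1 to 3. In Syn3 KO 1 was the highest of the 6 libraries and KO 2 and KO 3 were the lowest. Timp3, a gene on the other strand, overlaps 14.1% of the exonic length of Syn3, so the value of Syn3 is uncertain.

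The remaining vesicle proteins did not pass. Syp, or synaptophysin, the most widely used vesicle marker, averaged 87.9 ± 0.620 CPM in KO and 89.7 ± 7.03 CPM in WT (log2 fold change -0.03, 95% interval -0.17 to 0.11). Its relative Synpr averaged 3.70 ± 0.779 CPM in KO and 4.83 ± 0.927 CPM in WT. Of the SV2 glycoproteins, which serve as receptors of botulinum toxin, Sv2a averaged 108 ± 18.5 CPM in KO and 124 ± 15.2 CPM in WT, and Sv2c 14.1 ± 1.29 CPM in KO and 14.7 ± 1.43 CPM in WT. Sv2b had 46 to 109 reads per KO library and 27 to 73 reads per WT library, so its interval was wide (log2 fold change 0.53, 95% interval -0.36 to 1.42). Syp overlaps the antisense gene Gm14703 over 16.8% of its exonic length, which limits its value in the same way as that of Syt4.

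Of 9 genes of Rab3 proteins and the active zone 4 fell and 5 did not pass, with a median log2 fold change of -0.33. The share called lower was 44.4%, against 10.5% of all tested genes. With each library's trend on exonic length removed, the median was -0.17, and 5 fell and 1 rose. Of all 18079 tested genes 1697 were then lower and 1840 higher. Rab3 proteins are GTPases that bring vesicles to the active zone. Rab3c had 146, 109 and 107 CPM in KO 1 to 3, against 150.4, 186 and 174 CPM in WT 1 to 3, and KO 1 lay just under WT 1 (log2 fold change -0.49, SE 0.13, edgeR adjusted p = 0.0295). Rab3a, the most abundant of the 3 per length, had 110.3, 103 and 111 CPM in KO 1 to 3, against 103, 115 and 118 CPM in WT 1 to 3 (log2 fold change -0.05, 95% interval -0.20 to 0.09). Rab3b had 15.6, 12.05 and 16.1 CPM in KO 1 to 3, against 11.7, 12.5 and 12.8 CPM in WT 1 to 3. KO 1 and KO 3 exceeded all WT libraries in Rab3b while KO 2 did not, and it did not pass (log2 fold change 0.24, 95% interval -0.01 to 0.50).

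RIM proteins bind Rab3 and hold calcium channels at the release site, and Unc13 proteins prime vesicles by opening syntaxin. Unc13a had 138, 131 and 126 CPM in KO 1 to 3, against 158, 175 and 165 CPM in WT 1 to 3. The KO libraries were close to each other and all below WT (log2 fold change -0.33, SE 0.06, edgeR adjusted p = 0.00739). Over the 16 alternatives the log2 fold change of Unc13a ranged from -0.36 to -0.17. The adjusted p of each alternative's own test was at most 0.0438 for Unc13a. Rims1 had 20.3, 16.2 and 18.6 CPM in KO 1 to 3, against 21.9, 27.9 and 25.4 CPM in WT 1 to 3 (log2 fold change -0.45, SE 0.11, edgeR adjusted p = 0.0222). Their paralogues did not pass. Unc13b averaged 114 ± 11.5 CPM in KO and 119 ± 1.10 CPM in WT (log2 fold change -0.06, 95% interval -0.22 to 0.10), and Rims2 38.2 ± 4.59 CPM in KO and 41.4 ± 0.918 CPM in WT (log2 fold change -0.12, 95% interval -0.31 to 0.07). With each library's trend on exonic length removed, Unc13b was called higher (log2 fold change 0.18, edgeR adjusted p = 0.0203), and without KO 1 it was called lower, so its direction is not settled.

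Bsn and Pclo encode bassoon and piccolo, the giant scaffolds of the active zone. Pclo had 50.2, 38.3 and 38.7 CPM in KO 1 to 3, against 54.3, 63.8 and 58.8 CPM in WT 1 to 3 (log2 fold change -0.47, SE 0.11, edgeR adjusted p = 0.0166). Bsn had 167, 107 and 106 CPM in KO 1 to 3, against 185, 195 and 183 CPM in WT 1 to 3. KO 1 was much nearer to WT than to KO 2 and KO 3 in Bsn, which did not pass although its groups did not overlap (log2 fold change -0.57, SE 0.17, edgeR adjusted p = 0.0547).

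Of the 4 genes of vesicle retrieval 2 fell and 2 did not pass (median log2 fold change -0.24). That is 50% lower, against 10.5% of all tested genes. With the trend on exonic length removed, 1 fell and the median was -0.14. Amph, or amphiphysin, which recruits dynamin to clathrin-coated pits, had 47.5, 36.9 and 36.6 CPM in KO 1 to 3, against 62.2, 70.4 and 69.0 CPM in WT 1 to 3. Amph fell by 0.74 on the log2 scale (SE 0.10, edgeR adjusted p = 0.00192) with no overlap of the groups. Snap91, a clathrin assembly protein, had 102, 86.8 and 91.8 CPM in KO 1 to 3, against 103, 121 and 119 CPM in WT 1 to 3 (log2 fold change -0.29, SE 0.08, edgeR adjusted p = 0.0331). Synj1, or synaptojanin, the phosphatase that uncoats vesicles, had 100.9, 89.1 and 89.98 CPM in KO 1 to 3, against 104, 109 and 108 CPM in WT 1 to 3. Its groups did not overlap, and its edgeR adjusted p of 0.0502 (log2 fold change -0.20, SE 0.06) lay just outside the threshold. Dnm1, the neuronal dynamin that cuts vesicles free, had 126, 106 and 115 CPM in KO 1 to 3, against 100.02, 129 and 128 CPM in WT 1 to 3 (log2 fold change -0.04, 95% interval -0.27 to 0.19).

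**Figure D3:**
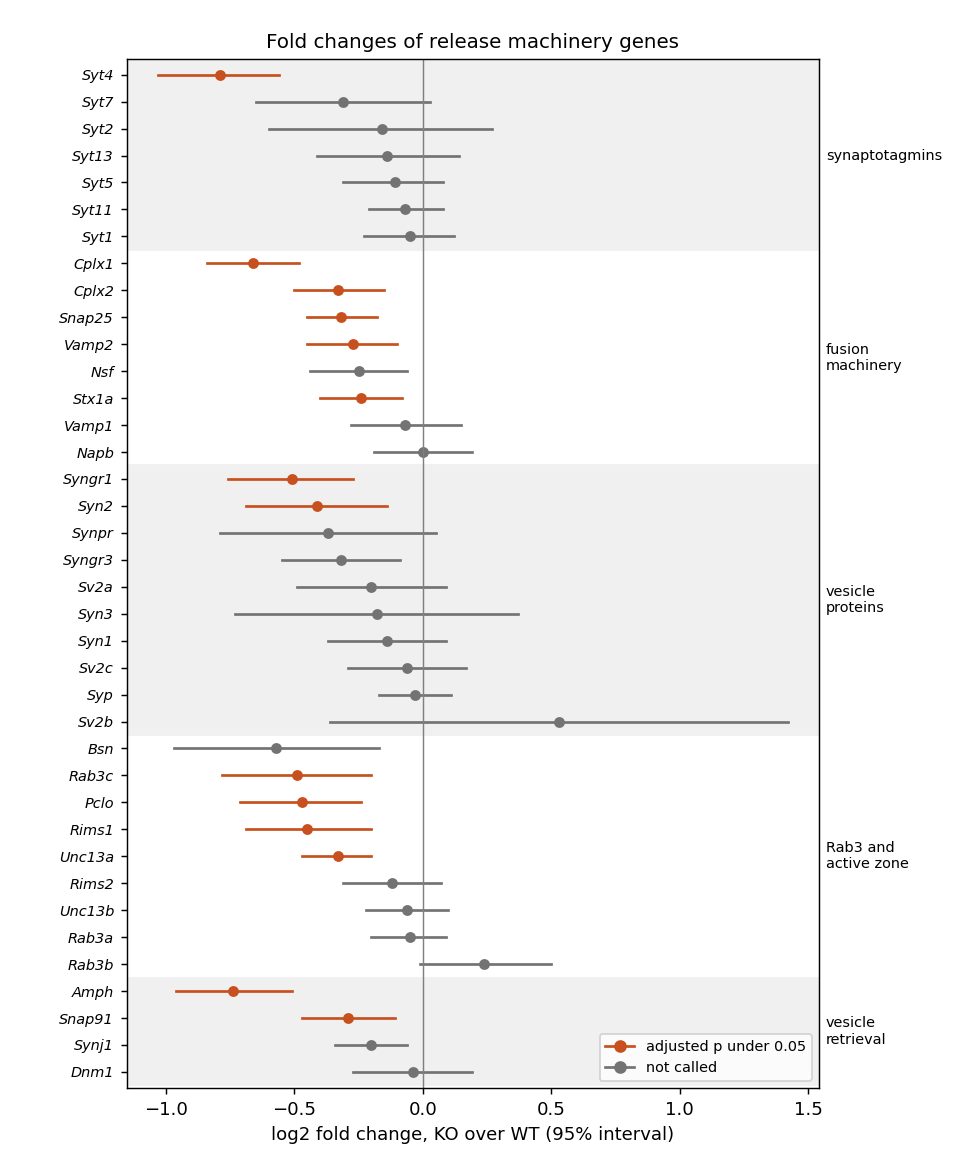
Log2 fold change of each gene, KO over WT, with its 95% interval, by role. Coloured points are the 14 genes with an edgeR adjusted p under 0.05, all of them lower; intervals of Bsn, Nsf, Syngr3 and Synj1 lie below 0 although their adjusted p-values are above 0.05.

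No share of a paralogue in its family passed a test, since the design could not reach the threshold. The share of each gene in the summed TPM of its family, which does not depend on the scaling between libraries, was compared for 19 shares with an exact two-sided permutation test, whose smallest p for 3 against 3 libraries is 0.1. Syt4 made up 11.2%, 9.88% and 9.62% of the 7 synaptotagmins in KO 1 to 3, against 15.4%, 15.1% and 16.4% in WT 1 to 3. Cplx1 made up 31.7 ± 1.41% of both complexins in KO and 36.9 ± 0.948% in WT. In both families the groups were fully apart, KO 1 included. Rab3c made up 15.9 ± 2.21% of the Rab3 genes in KO and 20.7 ± 1.00% in WT, while Rab3a made up 77.5 ± 2.21% in KO and 74.1 ± 0.902% in WT. These differences, KO minus WT, were -4.80 percentage points for Rab3c and 3.38 for Rab3a, and with raw counts in place of TPM they were -8.29 and 6.50. Unc13a made up 67.7 ± 1.21% of its pair in KO and 71.6 ± 1.03% in WT (SD, n = 3 each). Each of these 5 shares had an exact permutation p of 0.1, or 0.19 adjusted over the 19 shares. The share of Syn3 in the synapsins was 3.81 ± 0.985% in KO and 3.92 ± 0.498% in WT, with an exact permutation p of 0.9.

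**Figure D4:**
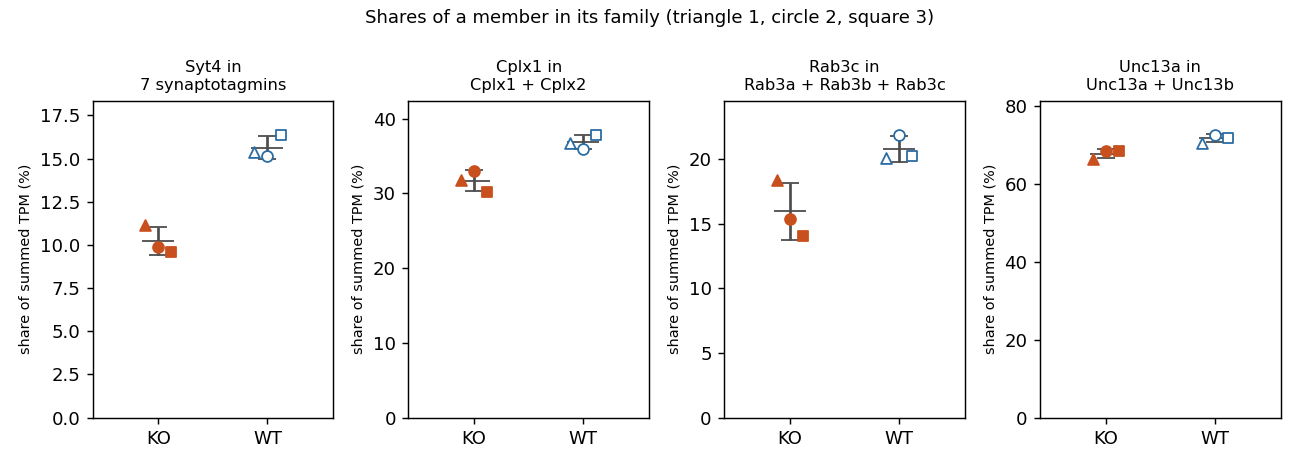
Share of Syt4, Cplx1, Rab3c and Unc13a in the summed TPM of its family, in percent, with KO on the left and WT on the right of each panel. Symbols are libraries, and bars are the mean ± SD of 3 libraries; in each panel all KO libraries lie below all WT libraries.

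Other genes of the same pathway were read from a list of 77, of which 76 had enough reads to be tested. Of these 21 fell, 2 rose and 53 did not pass (27.6% lower, median log2 fold change -0.14). Of all tested genes 10.5% were lower and 9.72% higher. Rph3a, a Rab3 effector, had 41.4, 32.4 and 31.2 CPM in KO 1 to 3, against 60.5, 61.7 and 63.7 CPM in WT 1 to 3 (log2 fold change -0.82, SE 0.10, edgeR adjusted p = 0.000883). Itsn2, an endocytic scaffold, was 1.48-fold lower (edgeR adjusted p = 0.00276), Cadps2, which primes dense-core vesicles, 1.67-fold lower (edgeR adjusted p = 0.00579) and the synaptotagmin Syt6 1.86-fold lower (edgeR adjusted p = 0.00875). Syt10, a synaptotagmin at 0.132 ± 0.0168 CPM in KO and 0.479 ± 0.0624 CPM in WT, was lower as well (edgeR adjusted p = 0.00579), on 5 to 8 reads per KO library. Genes on the other strand overlap 13.9% of the exonic length of Itsn2. The genes that rose were both of low level. Sncg, or gamma-synuclein, averaged 2.32 ± 0.621 CPM in KO and 0.783 ± 0.151 CPM in WT (edgeR adjusted p = 0.00316). Slc17a7, the vesicular glutamate transporter of cortical excitatory neurons, averaged 0.471 ± 0.181 CPM in KO and 0.152 ± 0.0767 CPM in WT (SD, n = 3 each; edgeR adjusted p = 0.031), on 3 to 7 reads per WT library. Without KO 1, 36 of the 76 fell and 7 rose, while of all 18213 genes then tested 3804 were lower and 3752 higher.

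Markers of neurons and of other cells moved beside the release genes. For the counts below, 10.5% of all tested genes were lower and 9.72% higher. Of 20 pan-neuronal genes 6 fell, 1 rose and 13 did not pass (median log2 fold change -0.10), and their summed level was 8899 to 9635 CPM in KO and 9612 to 10354 CPM in WT. Dcx and Mapt, of neuronal microtubules, each had a log2 fold change of -0.45, while Tubb3 (-0.01) and Stmn2 (0.03) did not pass. The summed level of the 38 release genes was 2419 to 2892 CPM in KO and 2871 to 3233 CPM in WT, overlapping between KO 1 and WT 1 alone. Of 12 radial glia genes 10 rose and 1 fell, with a summed level of 3387 to 3896 CPM in KO and 2538 to 2737 CPM in WT. Of 13 genes of striatal and lateral eminence neurons 10 fell and 0 rose, with a summed level of 430.8 to 562 CPM in KO and 647 to 836 CPM in WT. Of 7 GABAergic neuron genes 3 fell, and their summed level was 1631 to 1685 CPM in KO and 1832 to 1953 CPM in WT. No marker of these 4 lists was at 0 in any library. Their part in the lower release genes was not tested, and in these bulk samples fewer neurons and less RNA per neuron cannot be told apart.

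**Figure D5:**
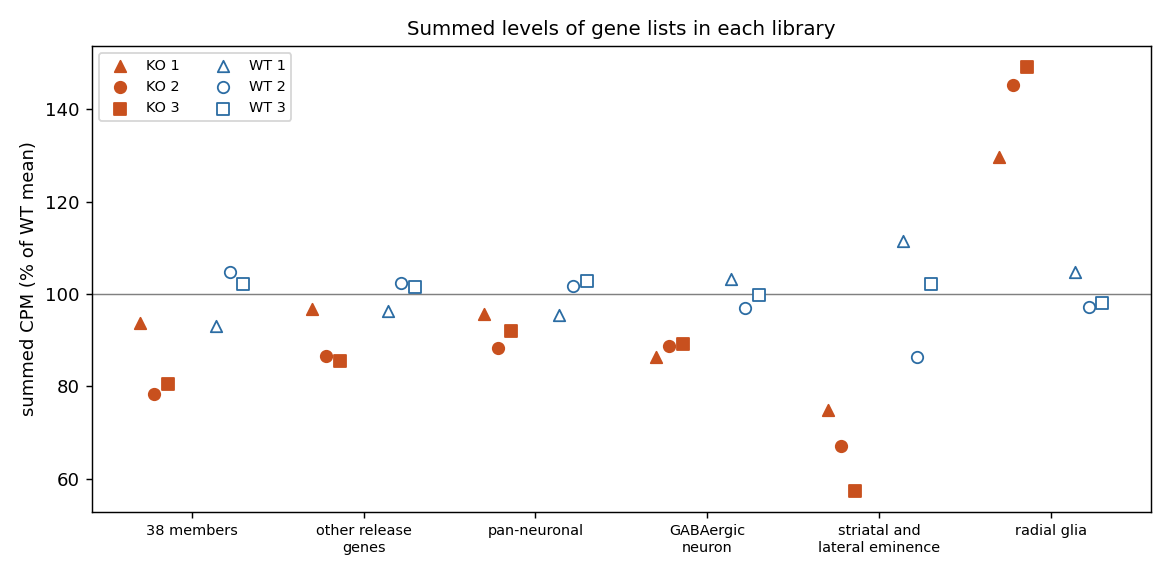
Summed CPM of 6 gene lists in each library, as a percent of the WT mean, with KO libraries left of WT libraries in each list. The 38 release genes stand at 93.8%, 78.4% and 80.5% in KO 1 to 3, the pan-neuronal markers at 95.6%, 88.3% and 92.1%, and the radial glia markers at 130%, 145% and 149%.

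Lists of other cells changed too, beside the 10.5% of all tested genes that were lower and the 9.72% that were higher. Of 6 pericyte genes 5 fell, of 7 endothelial genes 2 and of 6 microglia genes 3, and their summed levels were 74.5 to 108, 136.5 to 166 and 21.1 to 26.2 CPM in KO, against 124 to 128, 185 to 187 and 30.0 to 32.9 CPM in WT. Of 10 genes of cortical excitatory neurons, which include Slc17a7, 4 rose and 1 fell. Their median log2 fold change was 0.87, but their summed level was lower, at 383 to 459.7 CPM in KO and 565 to 622 CPM in WT. Bcl11b, the gene that fell, held most of that sum. It had 380, 328 and 278 CPM in KO 1 to 3, against 594, 505 and 521 CPM in WT 1 to 3. The direction of the sum therefore follows Bcl11b and not the genes that rose. Of 9 red blood cell genes 3 rose and 2 fell, with a summed level of 996 to 1596 CPM in KO and 659 to 721 CPM in WT. Of 6 oligodendrocyte precursor genes 1 rose and 2 fell, and of 8 MGE lineage genes 2 rose and 2 fell. In the MGE list Lhx8 (log2 fold change 0.49) and Sst (0.57) rose, and Lhx6 (-0.38) and Maf (-1.38) fell. Whether these cells contribute to the release gene values was not tested.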

How the data were processed

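Libraries were made from total RNA of MGE pools. The submitters' processing notes name STAR 2.5.2b, Trimmomatic 0.36, Subread 1.5.2, featureCounts, DESeq2 and build GRCm38; the sources used here give neither the annotation release nor the strand setting. The authors deposited whole-number counts of reads by Ensembl ID, the input of each test. A normalized table was not used here. Symbols, positions and exonic lengths came from GENCODE M21, which held 49056 of the 49315 gene IDs, and promoters from RefSeq (GRCm38.p6).

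Genes passing filterByExpr (minimum count 10) were kept, TMM factors were applied, and KO and WT were compared without pairing by the quasi-likelihood test (robust option) of edgeR 4.0.16 under R 4.3.3. P-values were adjusted by Benjamini-Hochberg over 18079 genes, with a threshold of 0.05. The SE is the log2 fold change over the square root of F. The fit was tested on simulated data. TPM were computed from counts and exonic length. DESeq2 1.42.0 and limma 3.58.1 served as alternatives. The 38 genes, the lists and the motifs were chosen with earlier results of these data known, and the promoters shown were chosen after their values were seen. Named were all 38 genes and, of the wider list, the 5 called genes of smallest p per direction. Per the labels the libraries are different pools, so p-values measure the spread between pools; their numbers are not stated to pair them.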

Additional observations from a re-analysis of the deposited data

How the results depend on the processing

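Over 16 alternatives and 38 genes (608 pairs), 530 kept their side of the threshold, 52 lost the call, 25 gained one and 1 reversed, which was Unc13b with the length trend removed (log2 fold change 0.18). Syt4, Cplx1, Amph and Unc13a were called lower under all 16. Leaving out 1 library gave 4 to 24 called release genes, 6 to 43 of the wider list and 1191 to 7556 of all genes, highest without KO 1. The replicate number as a block gave 8, 10 and 2081, so Rab3c, Rims1, Snap91, Stx1a, Syn2, Syngr1 and Vamp2 lost their calls and Bsn gained one. Correlations of the deviations of same-numbered pairs were -0.0756, -0.123 and 0.0264, so the numbers are not read as a pairing. DESeq2 called 17 release genes lower and limma voom 14, and the shares of all genes lower by these methods are not given here. The Y-linked share as a covariate left 12, while 1725 of all 18079 tested genes were then lower. With raw counts in place of TPM, by construction without length, differences in shares (KO minus WT, in percentage points) were -4.39 for Syt4, -2.82 for Syn2, 6.50 for Rab3a, -8.29 for Rab3c, 1.09 for Vamp1 and -3.51 for Cplx1, each with the same sign as by TPM. Depth limits Sv2b and Syt2 most, which had as few as 27 and 48 reads in a library.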
